A study of Schizosaccharomyces pombe with 6 samples.

Results

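The 55 protein-coding genes described here encode proteins of the small subunit of the cytosolic ribosome in fission yeast (*Schizosaccharomyces pombe*). They are all nuclear genes on chromosomes I to III whose symbol starts with rps followed by a digit, among 5113 protein-coding genes annotated there. Genes with other symbols, such as ubi5 for a ubiquitin fused to a small-subunit protein, are not among them. Of the 55, 28 lie on chromosome I, 20 on chromosome II and 7 on chromosome III. A gene's promoter level is the summed signal of same-strand start clusters lying between 500 bp upstream and 100 bp downstream of its annotated start, or up to the start codon of genes with a longer leader.

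Capped 5′ ends of RNA were sequenced by cap analysis of gene expression (CAGE) in whole cells of 2 haploid strains, with 3 libraries each. The fft2fft3 mutant (strain Hu2000, h-) carries fft2::kan and fft3::hph, so both Fft2 and Fft3, related chromatin remodelling ATPases of the SNF2 family, are deleted and replaced by drug resistance markers. The wild type (wt, strain Hu0029, h-) has both genes. Both strains carry ade6-M210 (ade6M210 in the mutant's label), leu1-32 and ura4-D18, and were grown to mid-log phase in YES, a rich medium, shaken at 180 rpm and kept at 30 °C. Each genotype is 1 strain, so strain and genotype cannot be told apart. The growth protocol speaks of cultures in duplicate and the design of triplicates, so libraries may share a culture and p-values measure the spread between libraries. The study asked whether transcription start sites keep their position when the first nucleosome of genes is depleted.

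Levels are in tags per 1000000 tags of the library (TPM), as deposited. Libraries held between 19861901 and 23242898 tags in the mutant and between 12681900 and 20073001 tags in the wild type, so 1 tag was worth 0.0430 to 0.0504 TPM and 0.0498 to 0.0789 TPM. Inside the coding part of fft2 there were 0.172, 0.0862 and 0.101 TPM in the mutant libraries, against 6.28, 4.65 and 4.40 TPM in wt. For fft3 they were 0.215, 0.474 and 0.554 TPM in the mutant, against 2.84, 1.5 and 3.34 TPM in wt. The 3 fixed markers of glucose starvation (fbp1, inv1 and gld1) summed to 16.8 to 21.0 TPM in the mutant and 0.867 to 0.996 TPM in wt, and all 3 were called higher in the mutant. The 8 markers of nitrogen starvation and mating summed to 80.0, 134.6 and 137.1 TPM in the mutant and 29.7, 446.9 and 39.7 TPM in wt. Wt replicate 2 stands apart in that sum, mainly through mei2 (189.9 TPM), mfm1 (93.8 TPM) and isp5 (85.1 TPM). It had 71.2 TPM of isp6, against 17.2 and 19.1 TPM in the other wt libraries and 33.0 to 63.4 TPM in the mutant. The markers mam2, mfm2 and mfm3 stayed under 2 TPM in every library, but were also highest in wt replicate 2 (1.97, 1.66 and 0.867 TPM). Of these 8 markers, ste11 was called higher in the mutant. What part these markers' states have in the results below was not tested.

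A ribosome's small subunit binds the messenger RNA and checks codons against transfer RNAs. Its proteins are needed in matched amounts, and in growing yeast their genes are among the most strongly transcribed. Most of these proteins in fission yeast are encoded by more than 1 gene with nearly the same product. Their promoters are known for the HomolD box, which takes the place of a TATA box, and the HomolE box, which often lies next to it. Rich medium and active TOR signalling keep such genes on, and starvation turns them down.

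The promoters of 7 of the genes are shown because their levels or changes carry the results below. They are those of the highest gene (rps1002) and of 2 pairs of unequal paralogues (rps1701 with rps1702 and rps1901 with rps1902). The others are those of rps1502, with a pair of HomolD cores, and of rps902, with an exact match of neither box. Each sequence is the 75 bases ending just before the main start, read 5′ to 3′ on the gene's strand from the RefSeq assembly ASM294v3. Capitals mark the HomolD core, CAGTCAC or its reverse complement GTGACTG, and the HomolE box, which is 2 copies of ACCCT in a row or its reverse complement, 2 copies of AGGGT.
rps1002 (chrII:1447919-1447993, + strand): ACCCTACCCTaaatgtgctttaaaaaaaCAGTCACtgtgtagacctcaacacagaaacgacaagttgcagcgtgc
rps1502 (chrI:3868979-3869053, - strand): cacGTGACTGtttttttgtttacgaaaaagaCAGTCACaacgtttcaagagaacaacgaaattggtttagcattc
rps1701 (chrII:604406-604480, - strand): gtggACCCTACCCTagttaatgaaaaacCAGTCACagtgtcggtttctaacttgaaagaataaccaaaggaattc
rps1702 (chrIII:917777-917851, + strand): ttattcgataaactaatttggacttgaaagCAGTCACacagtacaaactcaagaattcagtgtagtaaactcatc
rps1901 (chrII:3818204-3818278, + strand): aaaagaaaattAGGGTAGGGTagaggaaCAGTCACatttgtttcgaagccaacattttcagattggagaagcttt
rps1902 (chrII:535267-535341, + strand): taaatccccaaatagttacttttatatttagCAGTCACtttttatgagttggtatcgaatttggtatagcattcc
rps902 (chrII:2059696-2059770, + strand): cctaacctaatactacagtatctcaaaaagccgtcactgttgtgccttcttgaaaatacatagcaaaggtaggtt

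Motifs were searched on both strands in the 250 bp upstream of the annotated start of each gene, from which positions are counted here; in 6 of the 55 genes the main start lay elsewhere, in rps1002 9 bp upstream. The HomolD box as CAGTCACA was found in 34 of the 55 promoters (61.8%), against 134 of 5112 protein-coding promoters (2.62%). Its 7-base core CAGTCAC, chosen after the promoters had been seen and contained in every CAGTCACA match, was found in 50 of 55 (90.9%), against 231 of 5112 (4.52%). The nearest core of each gene had its first base between -74 and -43, with a median position of -51.5. HomolE was found in 21 of 55 (38.2%), against 62 of 5112 (1.21%), with its first base between -91 and -60. TATAAA was present in 14 of 55 (25.5%), against 2270 of 5112 (44.4%). The 83 large-subunit genes (symbols rpl and rpp) had shares of 65.1% for CAGTCACA, 91.6% for the core, 24.1% for HomolE and 24.1% for TATAAA. The 5112 promoters include those of both subunits. Among the 55, both the core and HomolE stood in 17 promoters. In all 17 HomolE lay upstream of the core, with 11 to 42 bp between their first bases. A core without HomolE stood in 33 promoters, HomolE without the core in 4 (rps1202, rps1401, rps2302 and rps502), and neither in rps902 alone among the 55. Only exact matches were counted. In the 75 bases before the main start, rps902 has CCGTCAC, and rps2302 and rps502 have CGGTCAC, which are close to the core. A match of letters is a description and not a measured binding site.

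**Figure D1:**
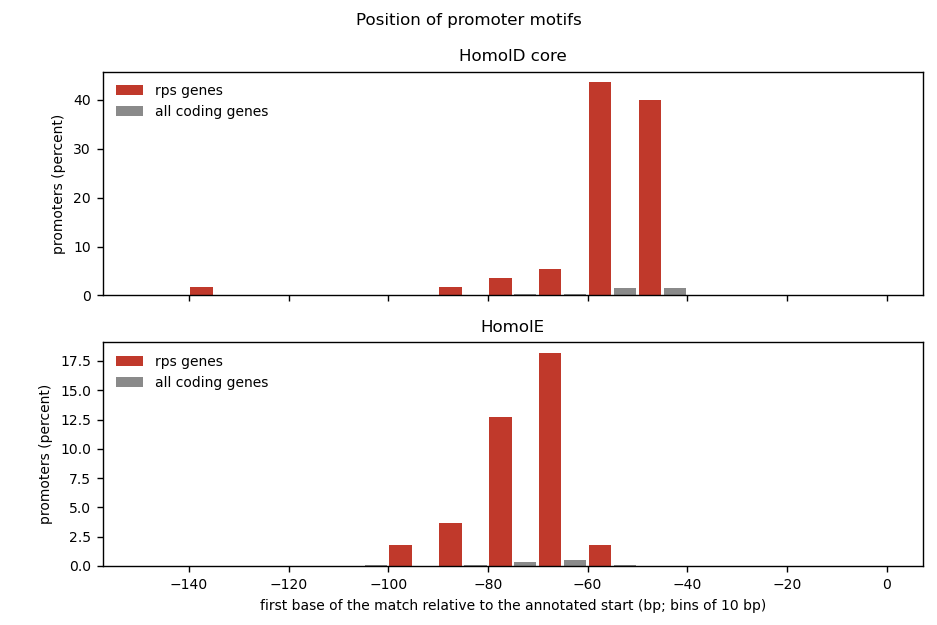
Share of promoters (percent, vertical axis) with a match of the HomolD core (upper panel) or HomolE (lower panel) by position of its first base relative to the annotated start, in bins of 10 bp. Red bars are the 55 rps genes and grey bars all 5112 coding promoters; the core peaks at -60 to -41 in the rps genes (43.6% and 40.0% of promoters in the 2 bins) and HomolE at -80 to -61.

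In 54 of the 55 genes the main cluster held over 98% of the wt promoter signal, and in 49 it had its summit at the annotated start. The median width of the main clusters was 8 bp (range 1 to 44 bp). From the main start to the start codon the median distance was 18 bp (range 6 to 201 bp, the longest in rps2202), against a median of 90 bp from the annotated start over all coding genes tested. All 55 main starts had a pyrimidine before a purine: CA in 26 genes, TG in 14, TA in 13 and CG in 2. The exception to the single main cluster was rps2502, whose main cluster held 63.4% of the wt signal and which had another 55 bp downstream. The 25 and the 36 bases from each main start occurred once in the genome for all 55 genes, so paralogues could be told apart by tags of these lengths.

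The levels covered a wide range. Means ran between 13.1 and 9873.6 TPM in the mutant, with a median of 732.1 TPM, and between 17.2 and 13742 TPM in wt, with a median of 1037 TPM. The median over all coding genes tested was 28.8 TPM in wt. The order of the genes by level was led by rps1002, which encodes eS10 of the beak of the subunit's head. Its level was 10642, 9458 and 9520.8 TPM in the mutant libraries, against 13636.2, 14640.2 and 12949.5 TPM in wt. Every mutant library was below every wt library. The next was rps801 (eS8, a protein of the subunit's body) with 4633.8, 6653.9 and 8264.5 TPM in the mutant, against 9606, 11072.1 and 8370.1 TPM in wt. Then came rps7 (eS7 of the body) with 6858.8, 5250.4 and 5336.7 TPM in the mutant, against 8057.1, 8568.9 and 8930.2 TPM in wt. The 2 genes next in wt level differed by less than their spread: rps2601 (eS26, which lines the messenger exit channel) averaged 3364.5 ± 456.5 TPM in the mutant and 5038.8 ± 714 TPM in wt. The other, rps102 (eS1 of the platform), averaged 3685 ± 412.1 TPM in the mutant and 4493.3 ± 478.3 TPM in wt (SD, n = 3 each, as for all means here). At the lower end stood rps2502 (eS25) with 13.8, 12.2 and 13.3 TPM in the mutant and 15.1, 17.3 and 19.1 TPM in wt, rps1702 and rps2202.

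**Figure D2:**
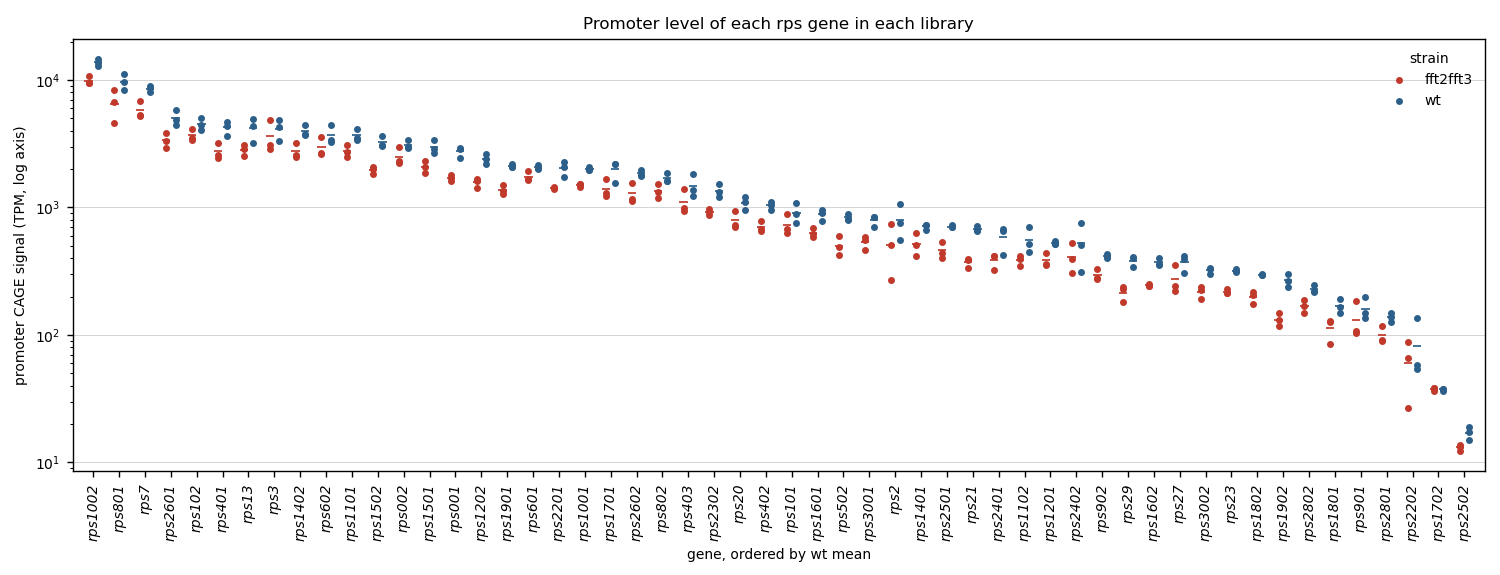
Promoter level (TPM, log axis) of 54 of the rps genes in each library, ordered by wt mean; red points are the 3 fft2fft3 libraries, blue points the 3 wt libraries and short lines the group means. The red points lie below all blue points in 41 of the genes shown, and the levels run from 13742 TPM (rps1002) to 17.2 TPM (rps2502) in wt means.

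Small-subunit genes had lower promoter levels in the mutant. Together they took 8.60%, 7.56% and 7.89% of all tags in the mutant libraries, against 10.7%, 11.8% and 11.4% in the wt libraries. The means were 8.02% ± 0.532 in the mutant and 11.3% ± 0.592 in wt, a ratio of 0.71. All 55 genes passed the minimum of 1 TPM in the mean over the 6 libraries, and in limma's moderated test on log2(TPM + 0.5), with Benjamini-Hochberg adjustment over all 5609 genes tested, 33 fell, 0 rose and 22 did not pass the threshold of 0.05. Unadjusted p was under 0.05 for 42 genes. Over all genes tested, 9.09% were called lower and 24.3% higher. The means were lower in the mutant for 54 genes and higher for 1, rps1702. In 42 genes every mutant library was below every wt library (14.4% of all genes tested), namely the 33 called genes and 9 others. The median log2 fold change, mutant over wt, was -0.51 (range -1.02 to 0.01), against 0.13 over all genes tested and 0.08 over coding genes. As plain ratios of means, the genes stood at 49.2% to 100.7% of wt, with a median of 70.0%. TPM are shares of a library, so a lower share of tags and less RNA per cell cannot be told apart here. Scaling by median-of-ratios or TMM placed the median of all genes at -0.02 with either, and that of the small-subunit genes at -0.66 with either.

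**Figure D3:**
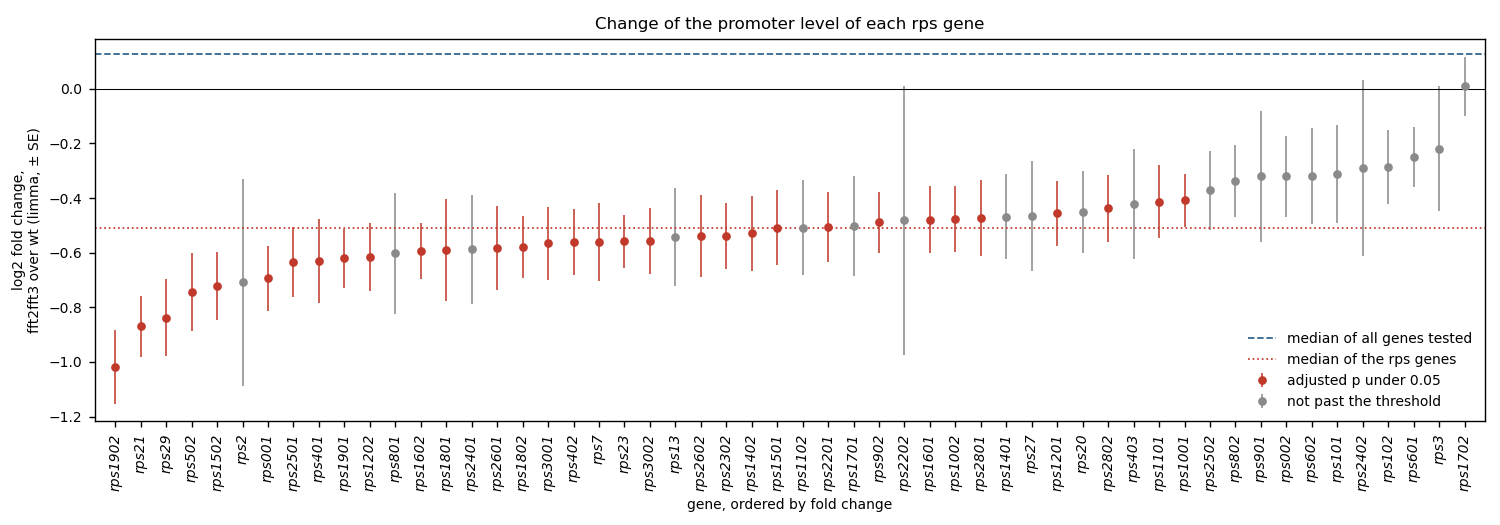
Log2 fold change of the promoter level, fft2fft3 over wt (limma, bars are ± SE), for 54 of the rps genes in order of size. Red points passed an adjusted p of 0.05 (32 of the genes shown, all below 0); the dotted line is the median of the 55 genes (-0.51) and the dashed line that of all genes tested (0.13).

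The number of genes called depended on single libraries. It was 17 without mutant replicate 2, 17 without mutant replicate 3, 21 without wt replicate 2 and 21 without wt replicate 3, against 33 with all libraries, and 0 were called higher in any of these fits. Fits without mutant replicate 1 and without wt replicate 1 called 40 and 26 lower. A set of 15 genes was called lower in every fit that left out a library and under every other setting tried: rps001, rps1202, rps1502, rps1602, rps1802, rps1901, rps1902, rps21, rps23, rps2302, rps2501, rps29, rps3002, rps402 and rps502. Mutant replicate 1 had the highest of the 3 mutant levels in 37 of the 55 genes, and wt replicate 1 the lowest of the wt levels in 30.

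The proteins of the subunit's head are encoded by 23 of the genes, of which 18 fell (median log2 fold change -0.50). The largest change of the 55 on the log2 scale was that of rps1902, 1 of 2 genes for eS19, a head protein whose human counterpart is mutated in Diamond-Blackfan anaemia. Its level was 147.8, 130.0 and 118.3 TPM in the mutant libraries, against 264.7, 300.8 and 238.8 TPM in wt. The mutant libraries all lay well below the wt libraries, and the log2 fold change was -1.02 ± 0.13 (SE; limma, adjusted p = 0.000819). The partner gene rps1901 is several times more active, with 1271.1, 1496.4 and 1355.9 TPM in the mutant and 2176.4, 2079.8 and 2072.1 TPM in wt, and it fell by 0.62 on the log2 scale (limma, adjusted p = 0.00358). The single gene for uS14, a zinc-binding protein of the head, is rps29. It had 237, 228.3 and 180.1 TPM in the mutant, against 405.6, 401.4 and 343 TPM in wt, and fell by 0.84 (limma, adjusted p = 0.00293).

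Further head genes fell by similar amounts. The gene rps502 had 596.8, 488.6 and 422.7 TPM in the mutant, against 886.6, 816.1 and 802 TPM in wt (log2 fold change -0.74 ± 0.14, limma adjusted p = 0.00568). For uS19, needed in budding yeast for export of the precursor subunit from the nucleus, rps1502 had 2084.3, 1825.9 and 1992.5 TPM in the mutant, against 3103.5, 3653.2 and 3005.4 TPM in wt. It fell by 0.72 (limma, adjusted p = 0.00314), and its groups were far apart. The genes rps2501 (eS25) and rps1202 (eS12 of the beak) were also among the 10 called genes with the largest changes, at -0.63 and -0.61 on the log2 scale. The smallest called change among the head genes was that of rps1001 (log2 fold change -0.41), with 1504.8 ± 42.7 TPM in the mutant and 1998.6 ± 54.2 TPM in wt.

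The body proteins are encoded by 26 genes, of which 12 fell (median log2 fold change -0.52). The single gene rps21 encodes eS21, a small protein that sits beside uS2. It had 386.2, 397.2 and 332.6 TPM in the mutant, against 653.8, 666.4 and 714.4 TPM in wt, and fell by 0.87 (limma, adjusted p = 0.000718), with no overlap between the groups. The gene rps001, 1 of 2 for uS2, had 1598, 1705.3 and 1793.5 TPM in the mutant, against 2896.6, 2916.8 and 2448.3 TPM in wt, and fell by 0.69. The gene rps401, the most active of 3 for eS4, fell by 0.63, with 2748.8 ± 405.3 TPM in the mutant and 4247.4 ± 546 TPM in wt. A change as large as these did not pass for rps2, the single gene for uS5, a protein that the arginine methyltransferase Rmt3 modifies in fission yeast. It had 267.8, 510.9 and 744.9 TPM in the mutant and 553, 1059.5 and 760.9 TPM in wt (log2 fold change -0.71 ± 0.38, limma adjusted p = 0.190). Its libraries spread so widely that the groups overlapped. The same held for rps2202 (uS8), with 26.5, 66.2 and 87.3 TPM in the mutant and 57.8, 135.6 and 53.7 TPM in wt. Mutant replicate 1 was the lowest of the 6 libraries for rps2, rps2202 and rps801. The rps801 groups did not overlap, and its log2 fold change was -0.60 (limma, adjusted p = 0.0720).

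The platform proteins, which lie around the messenger exit, are encoded by 6 genes, of which 3 fell: rps2601, rps2602 and rps1402, at -0.58, -0.54 and -0.53 on the log2 scale. The others had log2 fold changes of -0.29 (rps102), -0.31 (rps101) and -0.47 (rps1401), which did not pass. These 3 groups by place on the subunit were formed with the values known.

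The genes with the smallest differences came from all 3 places. For eS17 of the head, rps1702 had 38.2, 36.4 and 38.5 TPM in the mutant and 38, 38 and 36.4 TPM in wt (log2 fold change 0.01 ± 0.11). The 2 groups covered the same narrow range, and under median-of-ratios scaling the value was -0.14. The gene rps3, which encodes uS3 at the messenger entry, had 4840.9, 2877.5 and 3099.6 TPM in the mutant and 3312, 4251.4 and 4840.3 TPM in wt, so mutant replicate 1 was as high as the highest wt library. For eS6, a target of TOR-dependent phosphorylation, rps601 had 1747.3 ± 152 TPM in the mutant and 2073.4 ± 79.8 TPM in wt (log2 fold change -0.25). The other 2 were rps102 and rps2402 (eS24), both at -0.29. None of these 5 passed the threshold (limma adjusted p of 0.122 to 0.959).

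The median change was much the same across levels, introns and motifs. The 28 genes in the upper part by wt level had a median log2 fold change of -0.51 with 17 lower, and the 27 in the lower part a median of -0.51 with 16 lower. The 31 genes with an intron had a median of -0.54 (21 lower) and the 24 without one -0.51 (12 lower). With and without the HomolD core the medians were -0.51 and -0.54, and with and without HomolE -0.50 and -0.52. These medians are a description, and the differences between them were not tested.

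Summed over the genes for 1 protein, 31 families remained: 8 proteins with a single gene, 22 with 2 genes and eS4 with 3. All 31 family sums had a lower mean in the mutant, at 54.9% to 87.2% of wt, and in 25 the groups did not overlap. Among all single genes tested, 14.4% had every mutant library below every wt library. A share for sums over other sets of genes was not computed. Although their products stand in equal amounts in a ribosome, the families differed widely in promoter level. The highest sum, that of rps10, was 11378.4 ± 624.8 TPM in the mutant and 15740.6 ± 900.1 TPM in wt. The lowest, that of rps28, was 268.2 ± 33.5 TPM in the mutant and 365.4 ± 24 TPM in wt. The highest sum of a family over the lowest was 52.9 in the mutant and 43.1 in wt. For uS2 the 2 genes added up to nearly the same value in each wt library (5860.8, 5859.8 and 5849 TPM), against 4595.3, 3998.4 and 4011.6 TPM in the mutant.

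Paralogues were used very unequally in both strains. The 25 pairs had a median ratio, more active gene in wt over the other, of 3.29 in the mutant and 2.88 in wt, although the coding sequences within a pair were 74.6% to 94.0% identical. The ratio was largest for rps1701 over rps1702, at 37.0 in the mutant and 53.0 in wt, followed by rps2501 over rps2502 (35.0 in the mutant and 41.2 in wt) and rps2201 over rps2202 (23.7 in the mutant and 24.6 in wt). As printed above, both rps1701 and rps1702 have a HomolD core at nearly the same distance from the main start, -47 and -45. The more active rps1701 has a HomolE box besides. In the other pairs just named the box stood with the less active gene: rps2502 and rps2202 had HomolE at -66 and -65. Neither rps2501 nor rps2201 had an exact match of it. A link between the box and the more active gene was not tested. At the other end, rps1502 and rps1501, rps2401 and rps2402, and rps002 and rps001 had wt ratios of 1.10, 1.12 and 1.13, against 0.946, 0.936 and 1.47 in the mutant. The same gene was the more active one in all 6 libraries for 23 of the 25 pairs.

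Ratios within a library do not depend on its scaling. The log2 ratios of the 3 mutant libraries and the 3 wt libraries did not overlap in 2 of the 25 pairs (8.0%), against 13.5% of 37 large-subunit pairs. For rps1502 over rps1501 (uS19), the log2 ratio was -0.15, -0.03 and -0.05 in the mutant and 0.23, 0.12 and 0.06 in wt. Its sign differed between the strains, but the 2 genes had nearly equal levels (ratios of 0.946 in the mutant and 1.10 in wt). The difference was -0.21 (exact two-sided permutation test, p = 0.1, the smallest p that 3 libraries against 3 can give). Any pair without overlap gives this permutation p of 0.1, and 8.0% of the 25 pairs were without overlap. A swap of the more active gene is therefore not shown. The large-subunit genes changed in the same mutant, so their pairs are not a reference without change. The largest differences belonged to pairs whose groups overlapped: -0.51 for rps1701 over rps1702, 0.40 for rps1901 over rps1902, 0.37 for rps002 over rps001, -0.30 for rps2401 over rps2402, and -0.26 for rps2501 over rps2502 and for rps801 over rps802. For rps1901 over rps1902 the mutant libraries had 3.10, 3.52 and 3.51 and the wt libraries 3.04, 2.79 and 3.12, so that mutant replicate 1 lay among the wt values. The median size of the difference over the 25 pairs was 0.12. With 2 libraries against 3, which overlap less readily, the pairs without overlap numbered 7 without mutant replicate 1, 4 without mutant replicate 2, 4 without wt replicate 1 and 12 without wt replicate 3. Both genes of a pair were called lower in 12 pairs, 1 of the 2 in 8 and neither in 5.

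**Figure D4:**
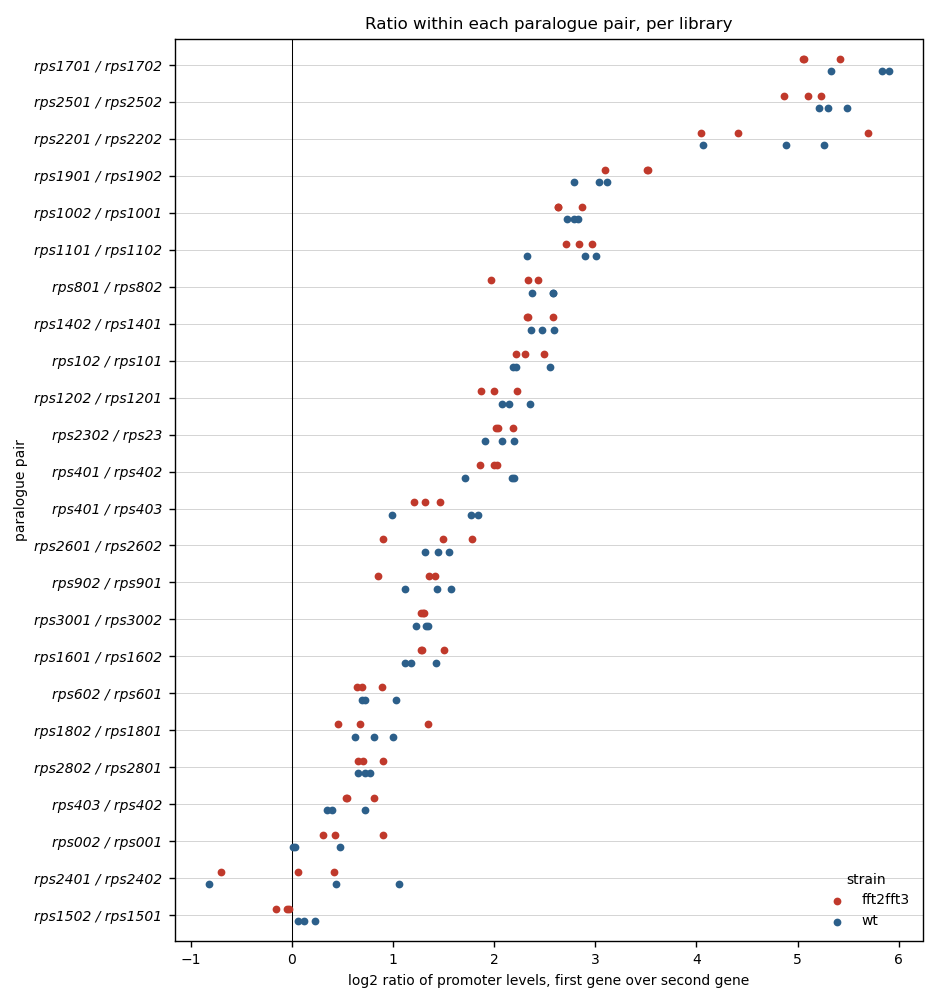
Log2 ratio of promoter levels within 24 of the paralogue pairs (first gene over second), 1 point per library, with fft2fft3 (red) above wt (blue). Pairs run from rps1701 / rps1702 (37.0 in the mutant and 53.0 in wt as ratios) down to rps1502 / rps1501, where the red points lie left of 0 and the blue points right of it.

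Mean start positions differed little between the strains. The tag-weighted mean start of a gene was tested with limma where the mean level was 5 TPM or more. The 55 genes had a median absolute shift of 0.017 bp, against 0.612 bp over all 4350 genes tested. In 54 of them the shift was under 1 bp. The largest, 1.32 bp, was that of rps2502, whose start lay at 22.7, 17.6 and 16.0 bp in the mutant libraries and 12.4, 16.4 and 23.5 bp in wt, counted downstream of the annotated start, so its groups overlapped. One gene was called, where 11.8% of all genes were: rps2401, with a shift of -0.14 bp (limma, adjusted p = 0.0254). This shift rests on a few tags in clusters 249 and 142 bp upstream of its annotated start. They averaged 0.11 and 0.22 TPM in the mutant and 0 and 0.0498 TPM in wt. The main cluster averaged 384.4 TPM in the mutant and 587.3 TPM in wt. The gene was called without mutant replicate 1 as well, and 0 genes were called when any of the other 5 libraries was left out. Since clusters are shared by all libraries and stand for a single position, shifts inside a cluster cannot be seen. A gene with a single cluster has a shift of 0 by construction. In 54 of the 55 genes the main cluster held over 98% of the wt signal, so small shifts were largely fixed in advance. The contrast with all genes tested therefore does not show that start sites of these genes are more stable.

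Of 175 clusters in the 55 windows, 63 reached a mean of 1 TPM, and 8 of these were minor ones. The test called 44 lower and 1 higher, where it called 9.36% lower and 36.9% higher of all 11250 clusters. The minor clusters called lower belonged to rps2 (348 bp upstream of its annotated start), rps2601 (440 and 338 bp upstream) and rps101 (187 bp upstream). The cluster called higher lay 374 bp upstream of rps20, which encodes uS10 of the head. It had 2.88, 2.67 and 2.37 TPM in the mutant, against 2.04, 1.34 and 1.52 TPM in wt (log2 fold change 0.57, limma adjusted p = 0.0309). The sum of rps20, in contrast, had 943.1, 708.4 and 733.6 TPM in the mutant, against 946.5, 1100.6 and 1198.7 TPM in wt, and did not pass (limma, adjusted p = 0.0531). The small cluster lies between rps2 and rps20, which point away from each other with 491 bp between their annotated starts (chrIII:2096036-2096527 in ASM294v3). It was not called with median-of-ratios or TMM scaling, nor, of the fits that left out a library, in any but the one without wt replicate 1. The number of clusters called lower was 25 without mutant replicate 2 and 27 without mutant replicate 3.

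Sense starts within the gene, downstream of the promoter window, were found in 45 of the 55 genes. Summed over the 55 genes, these starts had 98.6, 128.1 and 142.8 TPM in the mutant, against 163.2, 172.6 and 144.8 TPM in wt. Every mutant library was below every wt library, the closest being 142.8 and 144.8 TPM. The ratio of the means was 0.769, against 0.71 for the promoter levels of the same genes, and a fall apart from that of the promoters was not tested. With no minimum level, limma called 1 of the 45 genes higher and 5 lower, where it called 53.3% higher and 2.39% lower of 4653 genes. The gene called higher was rps502, with 0.215, 0.0431 and 0.151 TPM in the mutant and 0 in every wt library. Those called lower were rps601 (0.860, 1.21 and 0.906 TPM in the mutant, against 1.54, 2.13 and 1.97 TPM in wt), rps7, rps1501, rps1702 and rps2402. The highest such sum was that of rps3, with 29.0, 43.4 and 48.4 TPM in the mutant and 52.3, 59.0 and 45.7 TPM in wt, which did not pass. With a minimum mean of 1 TPM over the 6 libraries, 16 genes entered, of which 3 were called lower (rps601, rps7 and rps13) and 0 higher, where the test called 3.22% lower and 68.9% higher of 2638 genes. Of these 16, rps601 and rps102 entered through the wt libraries, since their mutant means were under 1 TPM. The number called lower after it was 1 without mutant replicate 1 or wt replicate 1 and 5 without mutant replicate 3.

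Antisense starts within the gene were found in 50 of the 55 genes. The 55 genes together had 31.9, 24.5 and 33.2 TPM of antisense signal in the mutant, against 23.8, 49.0 and 49.5 TPM in wt, so the groups overlapped. With no minimum level, limma called 4 of the 50 genes higher and 6 lower, where it called 63.4% higher and 1.91% lower of 4666 genes. The genes called higher were rps3002, rps1902, rps601 and rps1801. Of these, rps1902 and rps601 did not pass 0.503 TPM in any library and rps1801 did not pass 0.252 TPM, which are few tags. The groups of rps601 overlapped (0.172 TPM in mutant replicate 2 and 0.253 TPM in wt replicate 3). For rps3002, 1 of 2 genes for eS30, there were 1.25, 1.25 and 0.957 TPM in the mutant, against 0.199, 0.237 and 0.101 TPM in wt. Its main antisense cluster (means of 0.898 TPM in the mutant and 0.129 TPM in wt) lies in the promoter window of another protein-coding gene. Those called lower were rps1402, rps1901, rps1002, rps801, rps13 and rps1101, of which rps801 and rps13 did not pass 0.867 and 0.394 TPM in any library. For rps1402, a gene for uS11 of the platform, there were 0.0860, 0 and 0 TPM in the mutant, against 1.54, 5.05 and 0.557 TPM in wt, but its main antisense cluster lies in the promoter window of another protein-coding gene. For rps1002 there were 2.67, 3.15 and 3.93 TPM in the mutant, against 3.39, 7.02 and 7.94 TPM in wt. Wt replicate 2, which stands apart in the mating markers, was the highest wt library for rps1402 and rps1901. With a minimum mean of 1 TPM, 10 genes entered, of which 4 were called lower (rps1402, rps1901, rps1002 and rps1101) and 0 higher, where the test called 3.76% lower and 77.9% higher of 2047 genes. This minimum kept rps1402 and rps1901 through their wt libraries and left out all 4 genes called higher, rps3002 among them. The number called lower after it was 1 without mutant replicate 2 or wt replicate 2, 2 without wt replicate 3 and 7 without wt replicate 1.

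**Figure D5:**
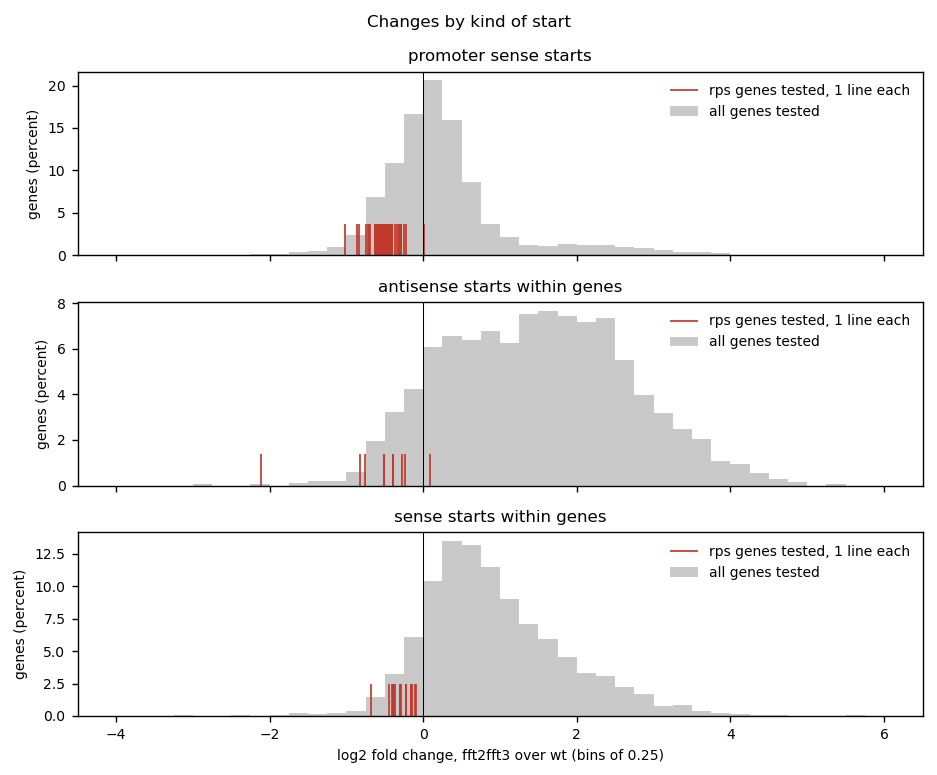
Distribution of log2 fold changes, fft2fft3 over wt, for promoter starts, antisense starts and sense starts within genes, in bins of 0.25; grey bars are all genes tested after the 1 TPM minimum (percent) and each red line is 1 rps gene among them. The median of all genes is 0.13, 1.49 and 0.77 in the 3 panels; the lower panels show the 10 and 16 rps genes that reached the minimum level, some of them through their wt libraries.

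The other genes of the ribosome and its assembly were taken from fixed lists. The 83 genes of the large subunit (symbols rpl and rpp) took 12.4%, 10.8% and 11.0% of tags in the mutant, against 14.9%, 16.0% and 16.3% in wt. Of the 83, 49 fell and 0 rose, with a median log2 fold change of -0.53, close to that of the small subunit. The largest falls among them were those of rpl1603 (-1.27), rpl4102 (-1.13) and rpl22 (-1.13). Of 5 genes for ubiquitin fusions and RACK1, of which ubi1 and ubi2 encode fusions to a large-subunit protein, cpc2 and ubi5 fell. The RACK1 homologue cpc2 had 7714 ± 862.4 TPM in the mutant and 10372.3 ± 721 TPM in wt, and ubi5, a ubiquitin fused to a small-subunit protein, 649.4 ± 59.5 TPM in the mutant and 842.7 ± 26.3 TPM in wt. Of 30 genes for factors that assemble the small subunit, 5 fell and 0 rose, where 9.09% of all genes were called lower and 24.3% higher, and their median was -0.16. Those that fell were fal1, an RNA helicase (25.5 ± 2.17 TPM in the mutant and 61.6 ± 4.04 TPM in wt), fap7, nob1, gar1 and rcl1. Of 15 regulators tested, 3 rose and 0 fell: tor1 (53.8 ± 6.58 TPM in the mutant and 35.8 ± 4.06 TPM in wt), sck1 and tbp1, with log2 fold changes of 0.58, 0.52 and 0.51. This share is no higher than the 24.3% of all genes called higher, and with median-of-ratios or TMM scaling 1 of the 15 was higher.

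The HomolD core also occurs outside the rps, rpl and rpp genes. Of 99 other tested coding genes with the core in their promoter, 17 were called lower and 9 higher, with a median log2 fold change of -0.06. Over all genes, 9.09% were called lower and 24.3% higher, and the difference was not tested. Ubiquitin fusions to ribosomal proteins, the RACK1 homologue and mitochondrial ribosomal protein genes were not set apart from these 99.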

How the data were processed

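CAGE was measured in 3 libraries of each strain. The submitters' processing notes name bedtools 2.15.0, Bowtie 0.12.7, CASAVA 1.6 and the build ASM294v2. As deposited by the authors, who wrote the unit as TPM, values are RPM (tags per 1000000) for 108138 clusters shared by all libraries. The deposited pooled score, a signal over all libraries, was not tested. Between 99.7% and 99.8% of values were whole tags (tolerance 0.02 tags). A CAGE tag without a molecular identifier is not an independent molecule.

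Genes and sequences came from RefSeq ASM294v3. Its fit to the deposited positions was checked by the pyrimidine-purine step at starts, present in 96.3% to 100% of promoter clusters in each of 12 equal parts of the chromosomes, against 23.1% of the genome. Clusters that lay in more than 1 window were counted for the closest start, which changed 3 of the 55 sums by at most 0.0128%. The mitochondrial gene rps3 was not analysed here.

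limma 3.58.1 (R 4.3.3) was run on log2(TPM + 0.5) in genes or clusters with a mean of at least 1 TPM, two-sided, with Benjamini-Hochberg adjustment over all features. On that scale the log2 fold changes of low genes are understated, and percentages of wt are plain ratios. Alternatives were DESeq2 1.42.0 and edgeR 4.0.16 on the recovered tags (45 and 42 genes lower, 0 higher), other windows, scalings, filters and pseudocounts, omission of each library in turn, and a replicate block. The limma step was tested on simulated data.

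The members, lists and tests were chosen with earlier results of these data known. Of the members, those named were the 10 called with the largest changes, the 5 with the smallest, the 5 highest and 3 lowest, the extreme paralogue pairs and those with called shifts or called starts within genes; the 3 largest calls of each other list were named, and further genes were named after their values were seen. From the lists, nep1 and 3 genes of RNase P were dropped by function, and krr1, dim2, rbp28 and crf1 matched no symbol. One gene counted among the 55 is not reported here by name or in the plots of single genes.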

Additional observations from a re-analysis of the deposited data

How the results depend on the processing

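None of the 55 promoter sums was called higher under any alternative run, and the median log2 fold change stayed between -0.57 and -0.46 without single libraries. The number called lower was 33 and became 18 with a replicate block and 17 to 40 without single libraries. Nothing in the labels ties a replicate number to a culture, and deviations of same-numbered libraries correlated at -0.21, -0.21 and -0.34 over 5609 genes, so the numbers were not taken as pairs; each mutant library correlated best with a wt library of another number (1 with 3, 2 with 1 and 3 with 2, at 0.41, 0.43 and 0.39). Promoter clusters called lower numbered 25 to 47 without single libraries, and those called higher, 1 in the main test, 0 to 1; they were 7 with no minimum level, and 0 with a minimum of 5 TPM, median-of-ratios or TMM scaling or the block. Intragenic sums called lower, 3 in the main test, were 5 with no minimum (and 1 higher), 9 with median-of-ratios or TMM scaling, 1 with the block, and 1 to 5 without single libraries, with 0 higher in the latter fits. Antisense sums called higher were 4 with no minimum and 0 without single libraries, and those called lower were 1 to 7. The start shift of rps2401 was lost with the block (0 called) and in some fits without a library (0 to 1). Paralogue pairs that did not overlap were 3 to 12 without single libraries, where 2 against 3 libraries overlap less readily by construction. The direction of rps1702 turned to -0.138 (median-of-ratios), -0.143 (TMM), -0.142 (edgeR), -0.137 (DESeq2), -0.000213 and -0.00598 (without mutant replicate 1 or 3) and -0.0106 (without wt replicate 3), with a range of -0.0106 to 0.0339 without single libraries. That of rps2202 turned to 0.0187 without mutant replicate 1 (range -0.831 to 0.0187) and that of rps2402 to 0.0187 without wt replicate 3 (range -0.615 to 0.0187); the cause was not tested. Genes under a few TPM are limited by counting error.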
